A study of Mus musculus with 12 samples.

Results

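A group of 10 interferon-inducible GTPase genes was followed in donor CD4+ T cells primed with or without recipient IL-6. They were chosen by symbol and comprise 7 guanylate-binding proteins (GBPs), namely *Gbp2*, *Gbp3*, *Gbp4*, *Gbp5*, *Gbp7*, *Gbp8* and *Gbp9*, and 3 immunity-related GTPases (IRGs), namely *Irgm1*, *Irgm2* and *Igtp*. They are 10 of the 40840 gene symbols in the count files. All 10 were among the 13570 genes that passed the filter on low counts and were tested.

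GBPs and IRGs are GTPases that cells make in response to interferons, above all interferon gamma. GBPs coat pathogens and the vacuoles that hold them, help to break these membranes and can thereby expose microbial products to inflammasomes. *Irgm1*, *Irgm2* and *Igtp* (also called Irgm3) encode the regulatory IRGs, which sit on the cell's own membranes and keep the effector IRGs away from them. In CD4+ T cells, *Irgm1* is known for protecting activated cells from death under interferon gamma. Interferon gamma signals through its receptor, JAK1 and JAK2 to target genes with GAS elements, and through IRF1 to those with ISRE elements.

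OTII cells, transgenic CD4+ T cells whose receptor recognizes an OVA peptide, were transferred into WT or *Il6*-/- mice. All recipients were sensitized intranasally with house dust mite (HDM) extract to which endotoxin (LPS) had been added, together with OVA. A dose held 100 µg of HDM extract and 5 µg of OVA, and the paper describes daily doses over 3 days. OTII cells were sorted from the mediastinal lymph nodes (mLN) on Day 3 or Day 5, which gave 4 groups with 3 libraries each: WT recipients on Day 3, *Il6*-/- recipients on Day 3, WT recipients on Day 5 and *Il6*-/- recipients on Day 5. The comparison between recipients asks how a host without IL-6 changes the priming of these cells, and the comparison between days how the genes move during priming. The donor cells were OTII cells in every group and *Il6* was missing from the recipients alone, so the sorted cells hold no *Il6* check of the labels. The labels give neither the age of the mice nor whether cells of several mice were pooled, and they give blood as the tissue, where the series text names the mLN. The series text also says that the paper starts its count of days at another number. As nothing states that the libraries of a group came from separate mice, p values measure the spread between these libraries, which may be technical.

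Libraries held 16125947 to 26111657 counts on genes. The share of reads that fell on genes was 60.2% to 62.2% in Day 3 libraries, against 52.5% to 56.7% in those of Day 5. The summed level of 7 T-cell markers, in CPM (counts scaled to the TMM-adjusted size of each library), was 7202 to 13502 per library. Markers of other cells were present at lower levels, with 6.55 to 16.7 CPM per library for the sum of 7 B-cell markers and 11.2 to 47.4 CPM for that of 11 myeloid and dendritic-cell markers. The sum was 62.8 to 114 CPM for 6 CD8 T-cell and NK-cell markers and 83.2 to 153 CPM for 5 stromal and endothelial markers. It was 0.217 to 85.4 CPM for 4 granulocyte markers and 0.475 to 20.7 CPM for 5 lung epithelial markers. In RNA from sorted populations, fewer cells that express a gene and less RNA per cell cannot be told apart.

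The 10 genes lie on 3 chromosomes (GRCm39, GENCODE vM39), and the spans given include introns. *Gbp5*, *Gbp7*, *Gbp3* and *Gbp2* follow one another on the plus strand of chromosome 3 within 144 kb, from base 142199739 to base 142343779. *Gbp8*, *Gbp9* and *Gbp4* lie on the minus strand of chromosome 5 within 126 kb, from base 105162016 to base 105287609. On chromosome 11, *Irgm1* occupies bases 48752795 to 48763164 on the minus strand. *Igtp* (bases 58089840 to 58098417) and *Irgm2* (bases 58090444 to 58113615) overlap on the plus strand, with canonical start sites 325 bases apart. *Gbp4*, *Gbp8* and *Gbp9* share 107 exonic bases, and *Igtp* and *Irgm2* share 162. Reads were counted without strand, and exons of *Gbp2*, *Gbp5*, *Gbp7*, *Gbp9*, *Irgm1* and *Irgm2* overlap noncoding genes on the opposite strand by 24 to 570 bases. *Gbp7* also shares 637 bases (10.6% of its exonic length) with a processed pseudogene on its own strand, which was not counted. Reads of partners that were not counted cannot be told apart. Of the exonic windows of 50 bases, the length of a read, 83.8% of *Gbp8* occurred nowhere else in the genome, as did 88.1% to 89.5% of *Gbp9*, *Irgm2*, *Igtp* and *Gbp4* and 94.8% to 98.8% of the other 5 genes. Counts of the overlapping and less unique genes are therefore less certain.

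Promoter windows of 300 bases, from 250 bases before the start site to 50 bases from it on, were searched on both strands for the GAS pattern TTCNNNGAA and the ISRE pattern, GAAA followed by any 2 bases and GAAA. A GAS match was found in 3 of the 10 windows (30% against 8.45% of 19319 promoters), an ISRE match in 5 (50% against 3.69%) and both in 3 (30% against 0.544%). *Gbp5*, *Gbp7* and *Irgm2* held both patterns, *Gbp2* and *Irgm1* held the ISRE alone, and *Gbp3*, *Gbp4*, *Gbp8*, *Gbp9* and *Igtp* held neither. Below are the stretches from 120 bases before the start site to 30 bases from it on, 5′ to 3′ on the strand of the gene, for the 5 genes with a match and for *Gbp9*, the gene whose level was lower in *Il6*-/- recipients on Day 3. Capitals mark the matches. They are Gbp5 (chr3:142202414-142202563, plus), Gbp7 (chr3:142235924-142236073, plus), Gbp2 (chr3:142326229-142326378, plus), Irgm2 (chr11:58090324-58090473, plus), Irgm1 (chr11:48762218-48762367, minus) and Gbp9 (chr5:105258223-105258372, minus).
Gbp5: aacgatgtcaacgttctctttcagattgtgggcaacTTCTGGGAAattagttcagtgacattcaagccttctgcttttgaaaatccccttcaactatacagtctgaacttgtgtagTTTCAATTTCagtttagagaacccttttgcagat
Gbp7: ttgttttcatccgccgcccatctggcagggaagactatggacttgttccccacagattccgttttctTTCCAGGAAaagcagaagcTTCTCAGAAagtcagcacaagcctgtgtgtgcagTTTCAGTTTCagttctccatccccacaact
Gbp2: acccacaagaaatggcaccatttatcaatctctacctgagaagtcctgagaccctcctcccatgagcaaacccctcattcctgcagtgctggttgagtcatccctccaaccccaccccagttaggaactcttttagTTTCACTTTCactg
Irgm2: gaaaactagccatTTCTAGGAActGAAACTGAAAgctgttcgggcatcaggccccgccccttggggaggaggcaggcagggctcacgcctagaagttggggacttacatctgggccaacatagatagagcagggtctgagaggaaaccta
Irgm1: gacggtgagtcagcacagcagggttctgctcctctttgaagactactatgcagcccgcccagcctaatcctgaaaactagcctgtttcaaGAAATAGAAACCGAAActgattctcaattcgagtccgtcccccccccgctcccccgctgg
Gbp9: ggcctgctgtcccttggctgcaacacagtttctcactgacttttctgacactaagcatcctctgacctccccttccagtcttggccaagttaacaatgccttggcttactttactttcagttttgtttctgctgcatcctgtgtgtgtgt

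In *Gbp5*, the GAS match began 84 bases before the start site, and the ISRE match began 4 bases before it. In *Gbp7*, GAS matches began 53 and 34 bases before the start site and the ISRE match at base 1. *Irgm2* held a GAS match at 107 and an ISRE match at 96 bases before its start site. *Irgm1* had overlapping ISRE matches at 30 and 24 bases before its start site, and the match of *Gbp2* began at base 17 of the transcript. The windows depend on the start site that the annotation calls canonical, and a match is not a binding site.

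**Figure D1:**
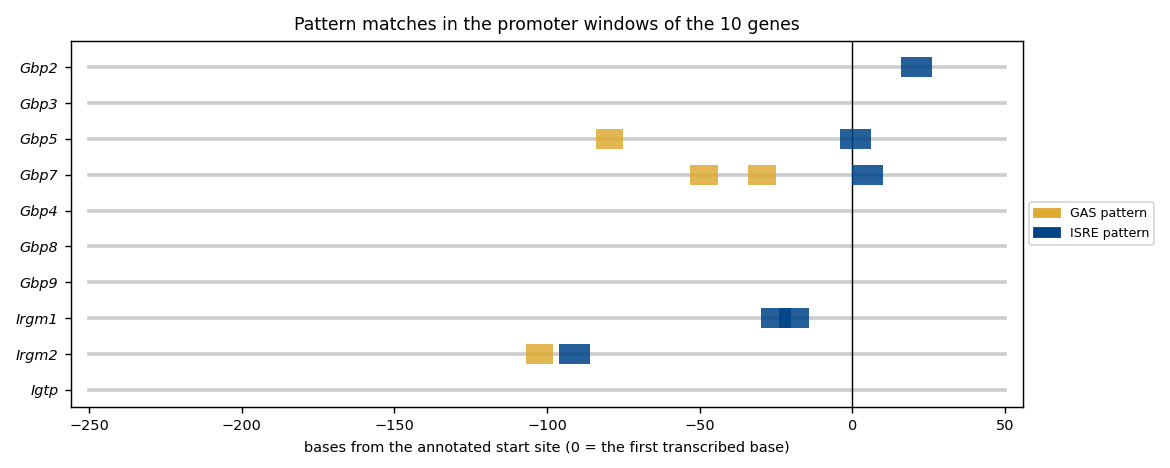
Matches to the GAS and ISRE patterns in the promoter windows of the 10 genes, by distance in bases from the annotated start site. Matches lie in 5 windows (*Gbp2*, *Gbp5*, *Gbp7*, *Irgm1* and *Irgm2*), and the windows of the other 5 genes are empty.

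Levels between genes were compared as CPM per kb of exon. *Igtp* had the highest level of the 10 genes in all 4 groups, with 23.3 ± 3.17 CPM per kb (mean ± SD, n = 3) in WT and 24.6 ± 0.768 in *Il6*-/- recipients at Day 3, followed by 28.1 ± 3.45 and 32.2 ± 0.872 at Day 5. *Irgm1* came next by mean in every group, at 11.9 ± 0.965 to 17.2 ± 0.734 CPM per kb, and *Gbp5*, a GBP tied to inflammasome activation, had the lowest mean in every group, at 0.370 ± 0.0315 to 1.23 ± 0.158 CPM per kb. Its libraries overlapped those of *Gbp3* in *Il6*-/- recipients on Day 3 and in WT recipients on Day 5. In CPM without exon length, the mean of *Gbp5* lay above that of *Gbp3* in both of these groups (6.69 against 5.94 and 7.30 against 4.72 CPM). The rank of *Gbp5* thus depends on the exon lengths, which came from GENCODE vM39. The order in between changed with time. In WT recipients, *Gbp8* stood at 3.33 ± 0.363 CPM per kb on Day 3, level with *Gbp9* (3.44 ± 0.388), and at 14.1 ± 3.19 on Day 5, where its libraries overlapped those of *Irgm1* (14.5 ± 0.860) and *Gbp4* (10.6 ± 1.34). *Gbp2* libraries lay above those of *Gbp4* in *Il6*-/- recipients on Day 3 (8.73 ± 0.0141 against 7.02 ± 0.954 CPM per kb) and below them in WT recipients (5.64 ± 0.370 against 6.68 ± 0.362). On Day 3 in WT recipients, *Gbp2* did not part from *Irgm2*, nor *Gbp9* from *Gbp8*, nor *Gbp7* from *Gbp3*, beyond the spread of the libraries.

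**Figure D2:**
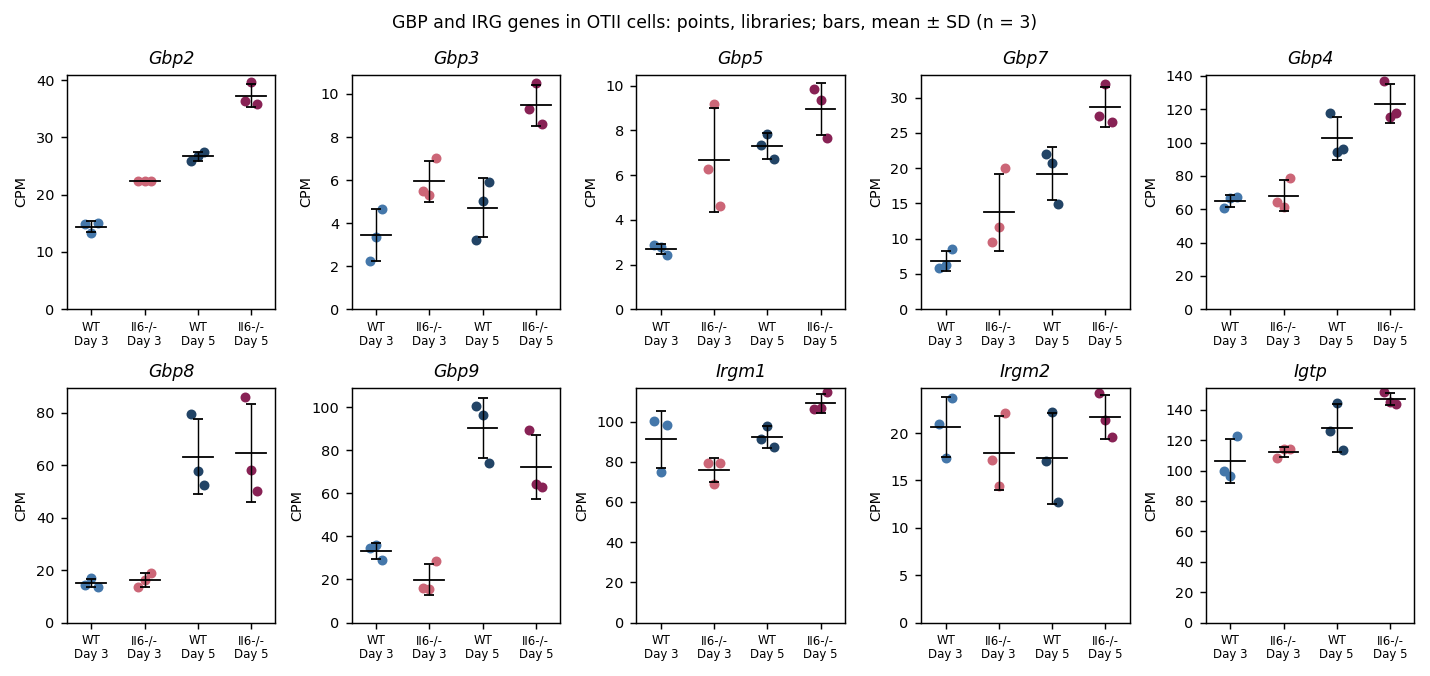
Level of each gene in CPM (linear axes from 0) in the 12 libraries, as points, with the mean ± SD of the 3 libraries per group. *Gbp2* rises in 4 separate steps, from 14.4 CPM in WT recipients on Day 3 to 37.3 CPM in *Il6*-/- recipients on Day 5, whereas the groups of *Irgm2* overlap.

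On Day 3, *Gbp2*, *Gbp5* and *Gbp7* were higher in OTII cells that had been primed without recipient IL-6 than in those from WT recipients, by 1.55-fold to 2.46-fold, and *Gbp9* was lower. These 4 of 10 genes passed an FDR of 0.05 (edgeR's quasi-likelihood test, Benjamini-Hochberg over 13570 genes), where 13.7% of all genes tested passed. In the upward direction 3 passed, against 7.52% of all genes, and in the downward direction 1, against 6.19%. *Gbp5* and *Gbp7* also changed at least 2-fold, against 2.74% of all genes. The median log2 fold change (log2FC, *Il6*-/- relative to WT recipients) of the 10 genes was 0.09, beside 0.01 for all genes tested. The libraries of the recipients did not overlap for 5 of the genes, 4 of them higher and 1 lower in *Il6*-/-, where this held for 36.2% of all genes.

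*Gbp2*, whose product inserts into membranes through a lipid anchor, had 14.9, 13.3 and 15.1 CPM in the WT libraries and 22.4, 22.3 and 22.3 CPM in the *Il6*-/- libraries on Day 3. Its groups stood far apart, and the log2FC was 0.63 ± 0.0972 (SE, FDR = 7.03e-04). *Gbp5* had 2.89, 2.77 and 2.44 CPM in the WT libraries and 6.28, 9.18 and 4.60 CPM in the *Il6*-/- libraries. The *Il6*-/- libraries were all higher but spread widely, and the log2FC was 1.30 ± 0.242 (FDR = 0.00238). Both calls held in all 22 alternatives to the processing, a number that leaves out the 2-fold limit and the test against a 2-fold change. *Gbp2* changed by less than 2-fold, and the test against a 2-fold change called neither gene.

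*Gbp7*, the next gene along from *Gbp5*, had 5.77, 6.28 and 8.47 CPM in the WT libraries and 9.56, 11.7 and 19.95 CPM in the *Il6*-/- libraries on Day 3. The groups did not overlap, and replicate 3 of *Il6*-/- recipients was well above the other libraries (log2FC 1.02 ± 0.244, FDR = 0.0121). Without that library the log2FC was 0.64 (FDR = 0.0654), and without replicate 2 of WT recipients it was 0.96 (FDR = 0.0583). *Gbp3* had 2.26, 3.36 and 4.67 CPM in the WT libraries and 5.49, 5.30 and 7.01 CPM in the *Il6*-/- libraries. Here too the groups stood apart, but the log2FC of 0.80 ± 0.276 did not pass (FDR = 0.0681). *Gbp3* passed in 6 of 22 alternatives, among them DESeq2 (FDR = 0.0308), limma-voom (FDR = 0.0475), no low-count filter (FDR = 0.0327) and the replicate block (FDR = 0.0252), and without replicate 3 of WT recipients on Day 3 (log2FC 1.09, FDR = 0.0346) or replicate 1 of WT recipients on Day 5 (FDR = 0.0441).

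*Gbp9* was the only one of the 10 genes that passed in the other direction on Day 3. It had 34.6, 36.2 and 29.0 CPM in the WT libraries and 15.9, 15.6 and 28.4 CPM in the *Il6*-/- libraries. The highest *Il6*-/- library, replicate 3, came close to the lowest WT library (log2FC -0.73 ± 0.209, FDR = 0.0295). The call was lost without replicate 1 (FDR = 0.134) or 2 (FDR = 0.132) of *Il6*-/- recipients or replicate 1 (FDR = 0.0694) or 2 (FDR = 0.108) of WT recipients. Its neighbours did not pass. *Gbp4* had 60.8, 66.5 and 67.2 CPM in the WT libraries and 64.4, 61.3 and 78.6 CPM in the *Il6*-/- libraries (log2FC 0.07, 95% CI -0.17 to 0.31). *Gbp8* had 14.5, 16.9 and 13.7 CPM against 13.4, 16.1 and 18.7 CPM (log2FC 0.10, 95% CI -0.34 to 0.53). For both, the groups overlapped.

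None of the 3 IRGs passed between the recipients on Day 3 (edgeR), *Irgm1* alone had an unadjusted p under 0.05, and DESeq2 called none of them. *Irgm1* had 100.1, 75.0 and 98.2 CPM in the WT libraries and 79.6, 68.8 and 79.2 CPM in the *Il6*-/- libraries, and replicate 2 of WT recipients lay among the *Il6*-/- libraries (log2FC -0.26, 95% CI -0.49 to -0.04, FDR = 0.113). Without that library the log2FC was -0.38 and passed (FDR = 0.0233), and *Irgm1* also passed with the replicate block (log2FC -0.26, FDR = 0.0317). *Irgm2* had 21.0, 17.4 and 23.7 CPM against 17.1, 14.4 and 22.1 CPM (log2FC -0.21, 95% CI -0.63 to 0.21). *Igtp* had 99.8, 96.2 and 122.8 CPM against 108.2, 114.5 and 114.1 CPM (log2FC 0.08, 95% CI -0.14 to 0.30). The groups of both overlapped, and the intervals exclude a 2-fold change for each of the 3 IRGs.

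Markers of other cells moved with the recipient on Day 3. The summed level of 7 B-cell markers was 6.55 to 8.69 CPM in WT recipients against 13.7 to 14.6 CPM, and 3 of the 7 stayed under 1 CPM in all libraries. Of the 4 tested, *Cd22* was higher (0.778 against 6.61 CPM on average) and *Pax5* was lower in *Il6*-/- recipients (0.841 against 0.171 CPM). The summed level of 6 CD8 T-cell and NK-cell markers was 62.8 to 74.5 against 83.6 to 114 CPM, with *Klrb1c* at 4.82 against 20.9 CPM on average and *Ncr1* at most 0.0390 CPM. Of the 5 of these markers tested, 1 passed, higher in *Il6*-/- recipients, where 13.7% of all genes passed. Another 1 went the other way without passing (log2FC -1.66). The T-cell markers summed to 7746 to 8995 against 7202 to 7382 CPM. The sum of 5 stromal and endothelial markers was 115 to 119 against 83.2 to 90.3 CPM, nearly all of it *Pecam1*, and the other 4 stayed under 1 CPM. The 11 myeloid and dendritic-cell markers overlapped between the recipients (11.2 to 26.7 against 13.8 to 17.0 CPM), as did the 4 granulocyte markers (0.217 to 40.02 against 0.317 to 30.2 CPM) and the 5 lung epithelial markers (0.494 to 1.52 against 0.475 to 11.3 CPM). The part of these markers in the GBP differences was not tested.

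**Figure D3:**
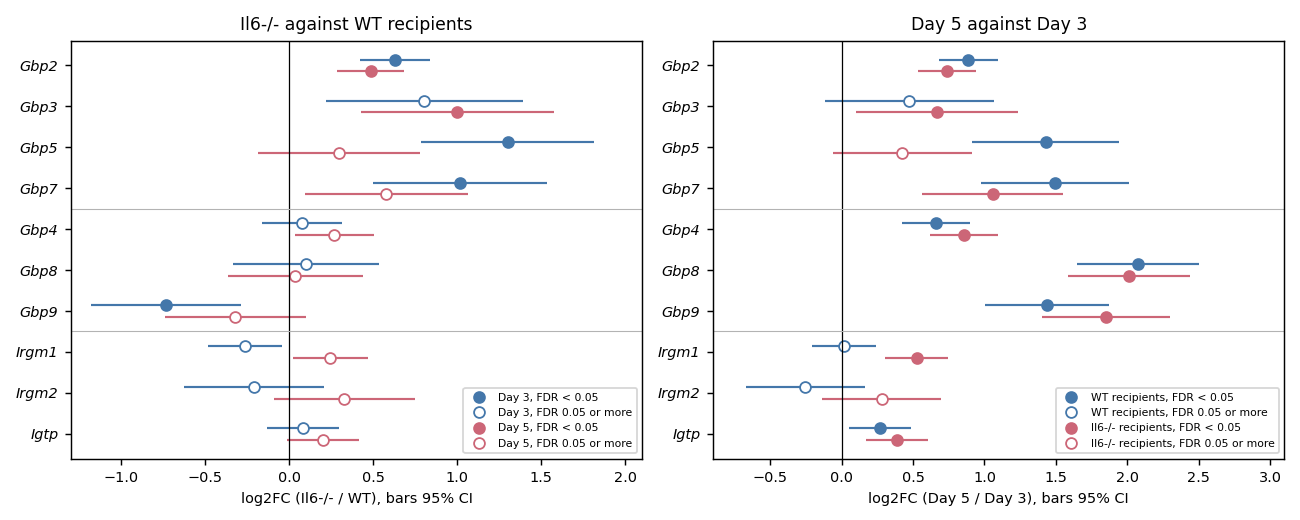
Log2 fold changes of the 10 genes with 95% confidence intervals, between recipients on each day (left) and between days in each recipient (right); filled points passed an FDR of 0.05. On the left, all 4 chromosome 3 genes (top block) lie to the right of 0 on both days, and *Gbp9* lies to the left; on the right, *Gbp8* lies near 2 in both recipients.

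On Day 5, *Gbp2* and *Gbp3* were higher in OTII cells from *Il6*-/- recipients, by 1.40-fold and 2.00-fold. They were the 2 of 10 genes that passed, where 4.61% of all genes passed with 1.27% higher and 3.35% lower. The replicate numbers paired the Day 5 libraries, and with replicate number as a block 4 of the 10 genes passed, all higher (*Gbp2*, *Gbp3*, *Gbp4* and *Gbp7*), where 11.7% of all genes did. Neither passed the additional 2-fold limit, which 1.14% of all genes did. The median log2FC of the 10 genes was 0.28, beside 0.01 for all genes. The libraries of the recipients did not overlap for 4 genes (*Gbp2*, *Gbp3*, *Gbp7* and *Irgm1*), all higher in *Il6*-/-, where this held for 19.6% of all genes.

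*Gbp2* had 25.9, 26.7 and 27.4 CPM in the WT libraries and 36.4, 39.7 and 35.9 CPM in the *Il6*-/- libraries on Day 5. The groups were again clearly apart (log2FC 0.48 ± 0.0941, FDR = 0.00914), and the call held in all 22 alternatives. *Gbp3* had 3.21, 5.04 and 5.92 CPM in the WT libraries and 9.32, 10.5 and 8.59 CPM in the *Il6*-/- libraries (log2FC 1.00 ± 0.269, FDR = 0.0471). Although its groups did not overlap, this call was close to the limit and was lost when any 1 of 9 libraries was left out, with the weakest value without replicate 1 of WT recipients on Day 5 (log2FC 0.79, FDR = 0.192). The others were replicates 2 (FDR = 0.106) of WT recipients on Day 5, 1 (FDR = 0.0523), 2 (FDR = 0.153) and 3 (FDR = 0.0804) of *Il6*-/- recipients on Day 5, 2 of WT recipients on Day 3 (FDR = 0.0634), and 1 (FDR = 0.063), 2 (FDR = 0.064) and 3 (FDR = 0.0578) of *Il6*-/- recipients on Day 3.

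*Gbp7* had 22.0, 20.7 and 14.9 CPM in the WT libraries and 27.4, 31.9 and 26.6 CPM in the *Il6*-/- libraries on Day 5. The groups did not overlap, but the gene did not pass (log2FC 0.58, 95% CI 0.09 to 1.06, FDR = 0.166). With replicate number as a block it passed (FDR = 0.0131), and so it did without the low-count filter (FDR = 0.00676). *Gbp5* had 7.33, 7.84 and 6.72 CPM against 9.84, 9.38 and 7.65 CPM, and one *Il6*-/- library fell among those of WT recipients (log2FC 0.30, 95% CI -0.19 to 0.78, FDR = 0.523).

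The chromosome 5 genes overlapped between the recipients on Day 5. *Gbp4* had 117.5, 94.2 and 95.9 CPM in the WT libraries and 136.9, 115.5 and 117.5 CPM in the *Il6*-/- libraries (log2FC 0.27, 95% CI 0.03 to 0.50, FDR = 0.189). With replicate number as a block, *Gbp4* passed (FDR = 0.0356). *Gbp8* had 79.7, 57.9 and 52.5 CPM against 86.0, 58.3 and 50.3 CPM (log2FC 0.03, 95% CI -0.37 to 0.44). *Gbp9* had 100.5, 96.3 and 74.2 CPM against 89.3, 64.3 and 63.1 CPM (log2FC -0.32, 95% CI -0.74 to 0.10, FDR = 0.399). In both recipients, replicate 1 had the highest level of all 3 genes.

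Among the IRGs on Day 5, *Irgm1* had 91.2, 98.0 and 87.2 CPM in the WT libraries and 106.2, 106.6 and 114.5 CPM in the *Il6*-/- libraries. All *Il6*-/- libraries were higher, but *Irgm1* did not pass (log2FC 0.24, 95% CI 0.02 to 0.47, FDR = 0.202). *Irgm2* had 17.1, 22.2 and 12.7 CPM against 24.2, 21.3 and 19.6 CPM (log2FC 0.33, 95% CI -0.09 to 0.75, FDR = 0.390). *Igtp* had 126.0, 144.7 and 113.4 CPM against 151.5, 145.2 and 144.1 CPM (log2FC 0.20, 95% CI -0.02 to 0.41, FDR = 0.294). Both overlapped between the recipients. On Day 5, the B-cell markers again summed higher in *Il6*-/- recipients (12.5 to 16.7 against 9.04 to 11.6 CPM), whereas the CD8 T-cell and NK-cell markers overlapped (86.3 to 101 against 91.6 to 111 CPM). Of the 4 B-cell markers tested, however, 2 were higher and 2 lower in *Il6*-/- recipients, and none passed, where 4.61% of all genes did. Their part in these values was not tested.

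An interaction term, Day 3 minus Day 5, tested whether the change between recipients differed with the day. None of the 10 genes passed an FDR of 0.05 (edgeR), where 4.92% of all genes did, 3.12% toward Day 3 and 1.80% the other way. At an unadjusted p under 0.05 there were 2 (*Gbp5* and *Irgm1*), and DESeq2 called 2. With the replicate block, 2 passed, *Gbp5* (FDR = 0.0445) and *Irgm1* (FDR = 0.00965), where 11.5% of all genes did. For *Gbp5*, the log2FC was 1.30 on Day 3 and 0.30 on Day 5, and the difference was 1.01 ± 0.331 (FDR = 0.0961). For *Irgm1*, the log2FC was -0.26 on Day 3 and 0.24 on Day 5, and the difference was -0.51 ± 0.147 (FDR = 0.0605). *Irgm1* passed in 8 of 21 alternatives and *Gbp5* in 3 of 21. The largest difference toward Day 5 was that of *Irgm2*, -0.53 ± 0.277, with an FDR of 0.296.

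Between Day 3 and Day 5, most GBPs rose in both recipients. The median log2FC (Day 5 relative to Day 3) was 1.43 for the 7 GBPs and 0.02 for the 3 IRGs in WT recipients, and 0.86 and 0.39 in *Il6*-/- recipients. In WT recipients, 7 of the 10 genes rose (6 of 7 GBPs and *Igtp*) and none fell, where 56.7% of all genes passed and 29.5% rose. At least 2-fold changes were seen in 4, against 22.1% of all genes. In *Il6*-/- recipients, 8 rose (6 of 7 GBPs, *Irgm1* and *Igtp*) and none fell, where 60.5% of all genes passed and 30.4% rose, and 3 changed at least 2-fold, against 25.9%. Over the 10 genes, the median log2FC was 0.77 in WT and 0.70 in *Il6*-/- recipients, beside 0.09 for all genes in each. The libraries of the days did not overlap for 6 genes in WT and 8 in *Il6*-/- recipients, where this held for 63.3% and 65.8% of all genes. Marker sums also moved with the day. The T-cell markers summed to 11677 to 13502 CPM on Day 5 and 7202 to 8995 CPM on Day 3. In WT recipients, Day 5 lay above Day 3 without overlap for the CD8 T-cell and NK-cell markers (91.6 to 111 against 62.8 to 74.5 CPM), the B-cell markers (9.04 to 11.6 against 6.55 to 8.69 CPM), the lung epithelial markers (2.55 to 20.7 against 0.494 to 1.52 CPM) and the stromal and endothelial markers (136 to 148 against 115 to 119 CPM). In *Il6*-/- recipients this held for the stromal and endothelial markers (124 to 153 against 83.2 to 90.3 CPM). Of the 4 B-cell markers tested, 2 rose and none fell in each recipient. Of the 4 lung epithelial markers tested, 2 rose in WT and 1 in *Il6*-/- recipients, and none fell. The CD8 T-cell and NK-cell markers did not move alike. Of the 5 tested, 2 rose and 1 fell in each recipient, with lowest log2FC of -3.51 in WT and -3.20 in *Il6*-/- recipients. Of 5 myeloid and dendritic-cell markers tested, 2 rose and 1 fell in WT recipients, and 3 rose in *Il6*-/- recipients. The part of these markers in the time course was not tested.

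*Gbp8* had the largest rise of the 10 genes in both recipients, 4.22-fold in WT (log2FC 2.08 ± 0.201, FDR = 5.88e-07) and 4.03-fold in *Il6*-/- recipients (log2FC 2.01 ± 0.201, FDR = 6.30e-07). *Gbp9* rose 2.71-fold in WT (log2FC 1.44 ± 0.203, FDR = 2.51e-05) and 3.61-fold in *Il6*-/- recipients (log2FC 1.85 ± 0.210, FDR = 2.20e-06). *Gbp4*, the third gene of the chromosome 5 group, rose by less, with a log2FC of 0.66 ± 0.111 (FDR = 1.29e-04) and 0.86 ± 0.112 (FDR = 9.01e-06). For these 3 genes, every Day 5 library lay above every Day 3 library of the same recipient.

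The chromosome 3 genes did not all move alike over time. *Gbp7* rose 2.82-fold in WT (FDR = 9.34e-05) and 2.08-fold in *Il6*-/- recipients (FDR = 0.00108), and *Gbp2* rose 1.85-fold (FDR = 1.97e-06) and 1.67-fold (FDR = 7.82e-06). *Gbp5* rose 2.69-fold in WT recipients (log2FC 1.43, FDR = 1.32e-04). In *Il6*-/- recipients its libraries overlapped between the days and the log2FC of 0.42 (95% CI -0.06 to 0.91) did not pass (FDR = 0.120), although it did without replicate 2 of *Il6*-/- recipients on Day 3 (log2FC 0.71, FDR = 0.0146). *Gbp3* did not pass in WT recipients (log2FC 0.47, 95% CI -0.12 to 1.07, FDR = 0.157), but did without replicate 3 of Day 3 (log2FC 0.75, FDR = 0.0446) or replicate 1 of Day 5 (log2FC 0.69, FDR = 0.0493). In *Il6*-/- recipients it passed narrowly (log2FC 0.67, FDR = 0.0401), and leaving out any 1 of 6 libraries ended that call: replicates 1 (FDR = 0.109) and 2 (FDR = 0.120) of *Il6*-/- recipients on Day 3, replicates 1 (FDR = 0.0703), 2 (FDR = 0.101) and 3 (FDR = 0.0534) of *Il6*-/- recipients on Day 5, and replicate 2 of WT recipients on Day 3 (FDR = 0.0507).

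Of the IRGs, *Irgm1* did not pass in WT recipients (log2FC 0.02, 95% CI -0.21 to 0.24) and rose 1.44-fold in *Il6*-/- recipients (log2FC 0.52 ± 0.104, FDR = 4.86e-04). The test of this difference is the interaction above, which *Irgm1* did not pass. *Igtp* rose 1.31-fold in *Il6*-/- recipients (log2FC 0.39, FDR = 0.00385) and 1.21-fold in WT recipients (log2FC 0.27, FDR = 0.0333). The latter call did not hold without replicate 1 (FDR = 0.128) or 2 (FDR = 0.157) of WT recipients on Day 3, replicate 1 (FDR = 0.0591) or 2 (FDR = 0.186) of WT recipients on Day 5, or replicate 2 of *Il6*-/- recipients on Day 5 (FDR = 0.067). *Irgm2* did not pass in either recipient (log2FC -0.26, 95% CI -0.67 to 0.16, and 0.28, 95% CI -0.14 to 0.70).

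Summed by chromosome, a grouping chosen after the values were seen, the genes gave 3 patterns. The 4 chromosome 3 genes together had 25.8 to 30.7 against 43.7 to 53.9 CPM (WT against *Il6*-/-) on Day 3, and 54.97 to 60.3 and 78.7 to 91.5 CPM on Day 5. No groups overlapped. The 3 chromosome 5 genes had 110 to 120 against 92.9 to 126 CPM on Day 3 and 223 to 298 against 231 to 312 CPM on Day 5. Their sum parted the days but not the recipients, although *Gbp9* alone was lower in *Il6*-/- recipients on Day 3 (log2FC -0.73). The 3 chromosome 11 genes had 189 to 245 against 198 to 215 CPM on Day 3 and 213 to 265 against 273 to 282 CPM on Day 5. Here the *Il6*-/- libraries of Day 5 stood above all others.

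**Figure D4:**
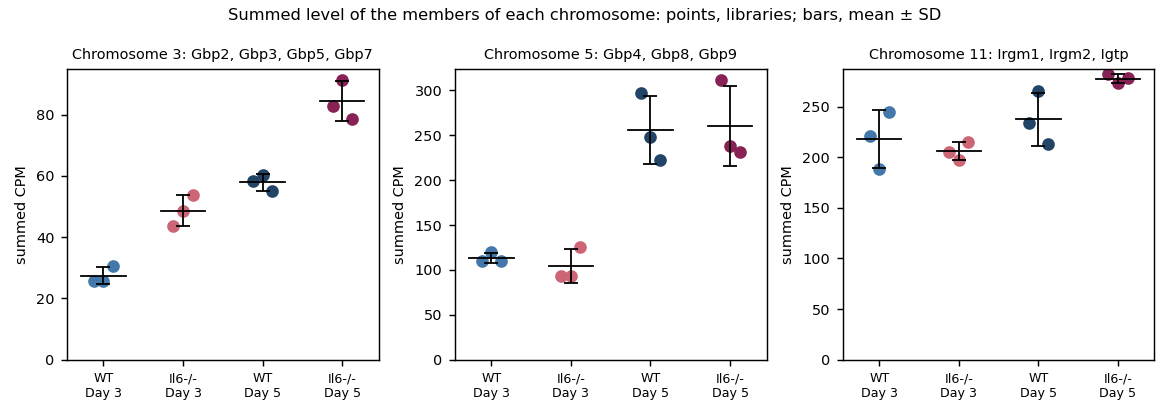
Summed CPM of the genes on each chromosome in the 12 libraries, as points, with the mean ± SD of 3 libraries per group and linear axes from 0. The chromosome 3 genes go up in 4 separate steps from 25.8 to 91.5 CPM, whereas the recipients overlap within each day for the chromosome 5 genes.

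Over the 12 libraries, Pearson's r between pairs of the 10 genes (log2 CPM, 45 pairs) ran from -0.186 to 0.956 with a median of 0.650. These libraries share their day and recipient, so the group means were then removed, which left a median of 0.121 and a range of -0.473 to 0.784. The 3 highest remaining values joined the chromosome 5 genes, *Gbp4* with *Gbp8* (0.784), *Gbp8* with *Gbp9* (0.771) and *Gbp4* with *Gbp9* (0.764), followed by *Irgm2* with *Igtp* (0.745). These are also the genes that share exonic bases in GENCODE vM39. If the annotation used for counting shares them too, which was not checked, reads in these bases were not counted on any gene. Among all other genes tested, those whose log2 CPM followed the mean standardised level of the 10 genes most closely were *Il10ra* (r = 0.961), *Ifi47* (r = 0.959), *Tgtp2* (r = 0.953), *Gbp6* (r = 0.949) and *Prr14l* (r = 0.944), over 12 libraries. *Ifi47*, *Tgtp2* and *Gbp6* encode GTPases of the same families, and *Il10ra* encodes a chain of the IL-10 receptor. All these values are descriptions without a test.

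The interferon gamma pathway list held 31 genes, of which 26 were tested. On Day 3, 8 of them passed between the recipients, 2 higher and 6 lower in *Il6*-/-, with a median log2FC of -0.04. Of all genes, 7.52% were higher and 6.19% lower. On Day 5, 4 passed, 2 higher and 2 lower, with a median of 0.01, beside 1.27% and 3.35% of all genes. With the replicate block 8 passed on Day 5, 3 higher and 5 lower, beside 11.7% of all genes. The ligand gene, *Ifng*, had 4, 11 and 0 counts in the WT libraries and 18, 19 and 21 in the *Il6*-/- libraries of Day 3, and 59, 27 and 50 against 131, 52 and 85 counts on Day 5. In CPM the *Il6*-/- libraries were higher on both days without overlap, but *Ifng* did not pass on Day 3 (log2FC 2.05 ± 0.661, FDR = 0.0528) or on Day 5 (log2FC 1.09 ± 0.497, FDR = 0.235). It passed on Day 3 in 5 of 22 alternatives. *Ifng* rose from Day 3 to Day 5 in both recipients (log2FC 3.23, FDR = 4.73e-04, and 2.28, FDR = 0.00175).

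Of the 4 receptor chains and kinases, 2 passed on Day 3, both lower in *Il6*-/- recipients, where 13.7% of all genes passed. *Ifngr1*, the chain that binds the ligand, was lower in *Il6*-/- recipients on Day 3 (111 ± 2.26 CPM in WT against 89.5 ± 6.85, log2FC -0.32, FDR = 0.0330), and *Jak2* was lower too (40.2 ± 0.493 against 30.1 ± 2.27 CPM, log2FC -0.41, FDR = 0.0154). On Day 5, *Ifngr1* did not pass (log2FC -0.30, FDR = 0.0784) except with the replicate block (FDR = 0.0136) and without replicate 3 of WT recipients on Day 5. *Ifngr2*, the signaling chain, had a log2FC of -0.01 (95% CI -0.33 to 0.31) on Day 3 and 0.03 (95% CI -0.28 to 0.33) on Day 5. It rose with time in both recipients, by 0.98 in WT and 1.01 in *Il6*-/- on the log2 scale (FDR = 4.77e-05 and 2.91e-05). *Irf1*, whose product acts on ISRE elements, had no overlap between recipients on either day but did not pass (log2FC 0.15, FDR = 0.230 on Day 3, and 0.17, FDR = 0.220 on Day 5). *Irf1* rose from Day 3 to Day 5 by 0.91 in WT and 0.94 in *Il6*-/- recipients on the log2 scale (FDR = 1.29e-07 and 7.82e-08).

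The transcription factor with the largest change between recipients was *Irf8*, which acts with IRF1 on ISRE-type elements. Its level on Day 3 was 52.4 ± 2.97 CPM in WT recipients against 119.9 ± 19.6 CPM in *Il6*-/- (log2FC 1.19 ± 0.132, FDR = 5.89e-05) and 34.5 ± 6.10 against 64.3 ± 5.35 CPM on Day 5 (log2FC 0.90 ± 0.135, FDR = 0.00250). *Stat2* and *Irf9*, partners in the complex that type I interferon activates, were lower in *Il6*-/- recipients on Day 3 (log2FC -0.56, FDR = 4.90e-04, and -0.44, FDR = 0.00283). Among the inhibitors, *Socs3* was lower on Day 3 (log2FC -2.34, FDR = 7.74e-06) and on Day 5 (log2FC -0.86, FDR = 0.0122). *Socs1* encodes an inhibitor of the JAK kinases of the interferon gamma receptor. It did not pass on Day 3 (20.1 ± 2.97 CPM in WT against 16.3 ± 1.48, log2FC -0.30, FDR = 0.255) and was lower in *Il6*-/- recipients on Day 5 (38.1 ± 8.68 against 18.6 ± 1.71 CPM, log2FC -1.03, FDR = 0.00277).

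Of 11 other interferon gamma targets tested on Day 3, *Psmb8*, an immunoproteasome subunit, was higher (log2FC 0.26, FDR = 0.0202), *Xaf1*, a pro-apoptotic gene, was lower (log2FC -0.84, FDR = 6.63e-04), and 9 did not pass. On Day 5, *Cd274*, which encodes PD-L1, was higher (log2FC 0.42, FDR = 0.0400). Of all genes, 13.7% passed on Day 3 and 4.61% on Day 5. The exons of *Cd274* and *Irf1* overlap those of counted genes on the opposite strand. *Batf2*, *Cxcl9*, *Ciita*, *Serping1* and *Ido1* were too low to test. Between the days, 19 of the 26 genes passed in WT recipients (18 rose and 1 fell) and 21 in *Il6*-/- recipients (19 rose and 2 fell), with medians of 0.44 and 0.57. Of all genes, 56.7% and 60.5% passed.

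**Figure D5:**
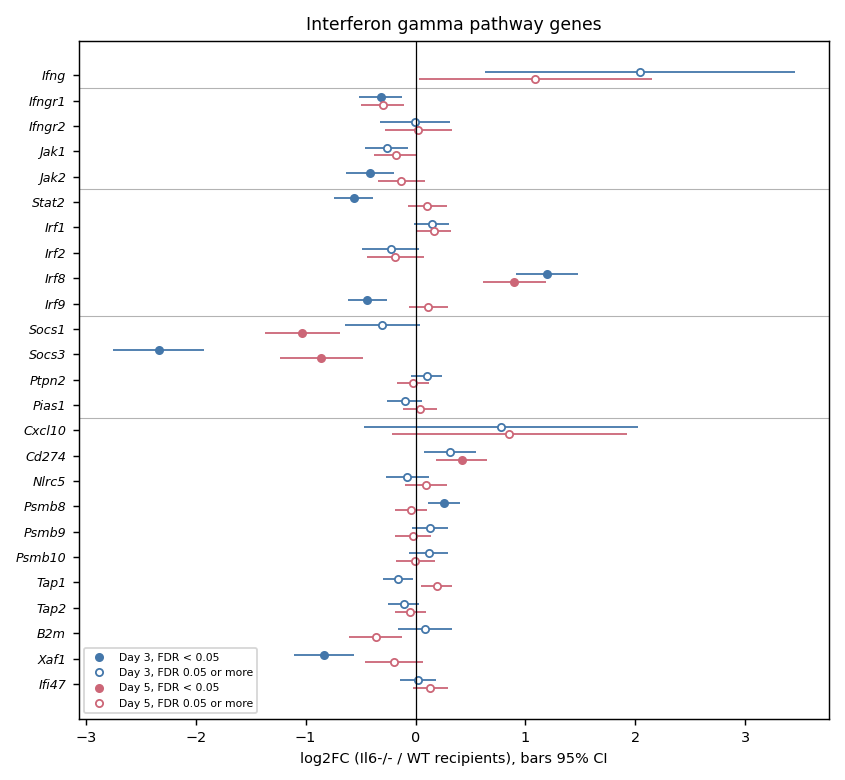
Log2 fold changes between *Il6*-/- and WT recipients for 25 of the 26 tested genes of the interferon gamma pathway list, with 95% confidence intervals; filled points passed an FDR of 0.05, and lines part the ligand, receptor and kinases, transcription factors, inhibitors and other targets. *Irf8* lies right of 0 and *Socs3* left of 0 on both days, and most other targets lie near 0.

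Of 19 further GTPases of the same and related families, 12 were tested, and 3 of these passed between the recipients on Day 3, where 13.7% of all genes did. *Gbp6*, a chromosome 5 GBP, was higher in *Il6*-/- recipients (12.4 ± 2.45 against 18.3 ± 0.422 CPM, log2FC 0.56, FDR = 0.0313), as was the effector IRG *Iigp1* (9.18 ± 3.45 against 17.0 ± 2.36 CPM, log2FC 0.90, FDR = 0.0315). *Gbp6* shares 1726 bases (25.4% of its exonic length) on its own strand with a protein-coding gene that was not counted. Reads of that gene cannot be told apart from those of *Gbp6*. *Mx1*, an antiviral GTPase induced by type I interferon, was lower (2.86 ± 0.0371 against 1.03 ± 0.493 CPM, log2FC -1.47, FDR = 0.0219). On Day 5, beside 4.61% of all genes, 1 passed, the effector IRG *Tgtp1* (5.21 ± 1.77 against 10.5 ± 1.33 CPM, log2FC 1.01, FDR = 0.0426), whose exons overlap those of another counted gene. *Gbp2b*, between *Gbp3* and *Gbp2* on chromosome 3, had at most 6 counts in a library and *Gbp11* likewise at most 6. From Day 3 to Day 5, 5 of the 12 rose and 1 fell in WT recipients, and 7 rose and 1 fell in *Il6*-/- recipients, where 56.7% and 60.5% of all genes passed.

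GBPs and IRGs work with autophagy conjugation proteins on vacuoles and with inflammasome proteins in cell death. Of 10 autophagy conjugation genes, *Atg3* was lower in *Il6*-/- recipients on Day 5 (93.4 ± 18.7 against 66.7 ± 2.80 CPM, log2FC -0.48, FDR = 0.0262). Of 5 tested inflammasome genes, *Casp1* was higher (17.4 ± 1.24 against 33.3 ± 6.09 CPM, log2FC 0.94, FDR = 0.00115) and *Gsdmd*, whose product forms the pores of pyroptosis, was lower (38.9 ± 1.24 against 26.1 ± 4.01 CPM, log2FC -0.58, FDR = 0.00476) on Day 3. Of the type I interferon receptor chains, *Ifnar2* was lower in *Il6*-/- recipients on Day 3 (118 ± 5.87 against 80.7 ± 3.85 CPM, log2FC -0.55, FDR = 3.55e-04). *Ifnar2* shares 747 exonic bases on its own strand with a protein-coding gene that was not counted, and reads of that gene cannot be told apart. Beside these lists, 13.7% of all genes passed on Day 3 and 4.61% on Day 5.

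Calls of several genes around the 10 rested on single libraries. Without replicate 2 of *Il6*-/- recipients on Day 3, the FDR of *Ifngr1* was 0.142 and that of *Mx1* 0.0857, and without replicate 1 of that group, that of *Jak2* was 0.0739. Without replicate 1 of WT recipients on Day 3, the FDR of *Psmb8* was 0.0865 and that of *Iigp1* 0.110, and without replicate 2, that of *Gbp6* was 0.152. On Day 5, the FDR of *Cd274* was 0.150 and that of *Socs3* 0.0683 without replicate 2 of *Il6*-/- recipients, that of *Tgtp1* was 0.113 without replicate 3, and that of *Atg3* was 0.129 without replicate 1 of WT recipients. These are the weakest values of each gene, and other single libraries also ended some of these calls. *Irf8*, *Stat2*, *Irf9*, *Xaf1*, *Casp1*, *Gsdmd*, *Ifnar2* and, on Day 3, *Socs3* passed in all 22 alternatives.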

How the data were processed

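The raw read counts on genes of 12 libraries were deposited by the authors. They sequenced single-end reads of 50 bases, used Trim Galore 0.4.4 for trimming, STAR 2.5.2a for alignment against GRCm39 and HTSeq 0.6.1p1 for counting, without strand. Reads in exons shared by different genes and reads without a unique position (23.7% to 28.2% of a library) were not counted on any gene. A deposited table of log2 CPM was not used here.

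edgeR 4.0.16 was run in R 4.3.3 on these counts. The filter was filterByExpr, library sizes were scaled by TMM (factors 0.944 to 1.06), and 1 quasi-likelihood model of 12 libraries had 1 coefficient per group and no block. P values were adjusted by Benjamini-Hochberg over 13570 genes (FDR). An exact permutation test of 3 against 3 libraries cannot give a two-sided p below 0.1. Errors of log2FC are SE. Same-numbered Day 5 libraries of the recipients deviated together from their group means (Pearson r 0.129 to 0.243 over genes, above 0.1 in all 3 pairs), so blocked values are given beside Day 5 results and the interaction where they changed a call. The labels name no source of this pairing. The fit was tested on simulated counts. No libraries were duplicates. Gene positions and start sites came from GENCODE vM39, and promoter sequences from the GRCm39 genome. All 10 genes are named. Pathway genes are named where they passed, as are *Ifng*, *Ifngr1*, *Ifngr2*, *Irf1* and *Socs1* in any case, along with the 5 genes of closest pattern. Some listed genes are not reported here by name. *Gbp2b* and *Gbp11* and the named markers were picked after their values were seen. The 10 genes and all lists were chosen with earlier results of these data known. Where a gene has a count of 0, as many as 3 counts remain possible (1.15e-05% to 1.86e-05% of a library), by counting error alone. Alternatives were other scalings and filters, DESeq2 1.42.0, limma-voom 3.58.1, a replicate block, the 6 libraries of a comparison alone, a 2-fold limit or test, each library left out, and, added after the data were seen, edgeR's newer quasi-likelihood method. For single genes, the alternatives leave out the 2-fold limit and test and number 22, or 21 for the interaction.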

Additional observations from a re-analysis of the deposited data

Results flagged for a closer look

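The interaction test called none of the 10 genes without the replicate block, and *Gbp5* and *Irgm1* with it. In the lists around them, 6 genes passed without the block (edgeR, Day 3 minus Day 5 in log2FC of *Il6*-/- relative to WT recipients). *Socs3* differed by -1.48 (FDR = 0.00807), *Stat2* by -0.67 (FDR = 0.00786), *Irf9* by -0.55 (FDR = 0.0173), *Ifnar2* by -0.44 (FDR = 0.0334) and *Tap1* by -0.35 (FDR = 0.0424), and *Atg3* differed by 0.63 (FDR = 0.0385). *Stat2* and *Irf9* were lower in *Il6*-/- recipients on Day 3 and had log2FC of 0.11 and 0.12 on Day 5. *Tap1* and *Atg3* have exons that overlap those of a counted gene on the opposite strand. *Irf9* shares 282 exonic bases with a counted gene on its own strand. Where the annotation used for counting shares these bases too, reads in them were not counted on any gene. *Atg3* also overlaps a noncoding gene by 74 bases that was not counted, and reads of that gene cannot be told apart. *Ifnar2* shares 747 bases (20.0% of its exonic length) on its own strand with a protein-coding gene that was not counted. *Socs3* overlaps noncoding genes on the opposite strand by 160 and 261 bases, which were not counted either. For *Ifnar2* and *Socs3*, reads of these partners cannot be told apart. The differences of *Irf9*, *Ifnar2*, *Tap1* and *Atg3* did not pass when single libraries were left out, at weakest with an FDR of 0.0597 (without replicate 2 of *Il6*-/- recipients on Day 3) for *Irf9*, and of 0.0921, 0.110 and 0.0971 (without replicate 3 of WT recipients on Day 3) for the other genes in this order. Of all genes tested, 4.92% passed, and 11.5% with the block.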

How the results depend on the processing

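Over the alternatives, the number of the 10 genes called was within 1.5 times the reported number in 22 of 24 settings for Day 3, 11 of 24 for Day 5, 12 of 21 for the interaction and 22 of 24 for each time comparison. With a 2-fold limit, the counts were 2 on Day 3, 0 on Day 5, and 4 in WT and 3 in *Il6*-/- recipients between the days, and in a test against a 2-fold change (glmTreat) they were 0, 0, 1 and 2. The pathway list gave 2, 1, 5 and 6 with the limit and 1, 0, 3 and 4 in that test. The 6 libraries of Day 5 alone gave 1 of the 10 genes. In the interaction, RLE scaling, upper-quartile scaling, no scaling and no low-count filter each gave 1 of the 10 genes, and DESeq2 gave 2. Leaving out each library gave 3 to 5 of the 10 genes on Day 3, 1 to 2 on Day 5, 0 to 1 in the interaction, 6 to 8 in WT and 7 to 8 in *Il6*-/- recipients between the days. For the pathway list it gave 5 to 10, 2 to 6, 2 to 5, 16 to 20 and 21 to 22. The causes of these shifts were not tested.

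With a replicate block within day, 4 of the 10 genes passed on Day 5 and 2 in the interaction, and 8 pathway genes passed in each. On Day 3, where the numbers were not shown to pair the libraries (same-numbered libraries correlated at 0.0325 to 0.0599, each best with its own number), 6 of the 10 genes passed with the block.

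Signs turned for the following values. With a library left out, *Gbp4* on Day 3 ranged from -0.041 to 0.15, *Gbp8* on Day 3 from -0.025 to 0.21, on Day 5 from -0.22 to 0.23 and in the interaction from -0.13 to 0.32 (-0.036 with no scaling), *Gbp3* in the interaction from -0.43 to 0.088, and *Ifngr2* from -0.12 to 0.079 on Day 3 and from -0.15 to 0.15 on Day 5. *Irgm1* between the days in WT recipients ranged from -0.11 to 0.084, and was -0.018 with RLE scaling and with DESeq2, -0.052 with no low-count filter and -0.012 with the 6 libraries alone. Upper-quartile scaling moved the median log2FC of all genes between the days from 0.09 to 0.29 in WT and 0.31 in *Il6*-/- recipients, and no scaling to 0.14 and 0.24. With 45 to 86 counts in each WT library on Day 3, *Gbp3* and *Gbp5* were the least deeply covered.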
